A study of Mus musculus with 5 samples.

Results

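The genes that build cholesterol and fatty acids were followed in the ear skin of mice without Cd1d and of control mice. The 30 genes were taken from a fixed list of symbols, chosen with earlier results of these data known. Matched by Entrez identifier to the 27179 rows of the deposited count table, all 30 were found and tested. They formed a sterol arm of 21 genes, from acetyl-CoA to cholesterol with 3 genes of sterol control and transport, and a fatty acid arm of 9 genes. Of the 5 total RNA libraries, 3 came from controls and 2 from knockout (KO) mice. The KO samples carry the title genotype Cd1d -/-, and the other samples are titled Cd1d +/- while their genotype tag reads WT, and they are named controls. The series gives B6 as the strain, and the age and sex of the mice are not stated in the labels. Cd1d encodes the molecule that presents lipid antigens to natural killer T cells, and the series asked how its loss alters the skin transcriptome. Levels are given as CPM (counts scaled to library size with TMM factors). KO replicate 1 stood apart in 12 hair follicle keratin markers, which summed to 684 CPM there, to 16.3 CPM in KO replicate 2 and to 12.3 to 25.3 CPM in the controls.

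Cholesterol is made from acetyl-CoA through mevalonate, isoprenoids, squalene and lanosterol. Fatty acids are made from acetyl-CoA by carboxylation, repeated condensation, and then elongation and desaturation. Both arms are controlled by the SREBP transcription factors, encoded by Srebf1 and Srebf2, which are held in the endoplasmic reticulum by Insig proteins when sterols are plentiful and move to the nucleus when sterols are scarce. In skin, keratinocytes use these lipids for the water barrier of the stratum corneum, and sebaceous glands use them for sebum.

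Promoter sequences are shown because the SREBP factors, which are themselves encoded by members, bind sterol response elements and act with NF-Y, which binds CCAAT boxes. RefSeq (GRCm38.p6) windows of 300 bases, from 250 bases before to 50 after a start site, were at hand for 25 of the 30 genes. The letters TCACNCCAC, a textbook form of the sterol response element, and CCAAT were searched on both strands, and the 2 motifs share no match. TCACNCCAC was present for 1 of the 25 genes, Hmgcs1, and for 1.44% of all 27025 genes with a window. CCAAT was present in at least 1 window for 22 of the 25 genes, and for 41.1% of all genes and 42.5% of 16784 protein-coding genes. Of the sterol arm 16 of 17 genes had it, and of the fatty acid arm 6 of 8. A match describes letters only, and a window without one says nothing about binding. The windows below, 5′ to 3′ on the gene's strand, belong to Hmgcs1 (chr13:119690101-119690400, plus strand), which holds the single TCACNCCAC match, to Mvk (chr5:114444019-114444318, plus strand), which holds 5 CCAAT matches, and to Ebp (chrX:8193463-8193762, minus strand) and Fasn (chr11:120824498-120824797, minus strand), which had the smallest p of their arms. Capitals mark both motifs on either strand. In Fasn 2 of the 3 CCAAT matches overlap each other.
Hmgcs1: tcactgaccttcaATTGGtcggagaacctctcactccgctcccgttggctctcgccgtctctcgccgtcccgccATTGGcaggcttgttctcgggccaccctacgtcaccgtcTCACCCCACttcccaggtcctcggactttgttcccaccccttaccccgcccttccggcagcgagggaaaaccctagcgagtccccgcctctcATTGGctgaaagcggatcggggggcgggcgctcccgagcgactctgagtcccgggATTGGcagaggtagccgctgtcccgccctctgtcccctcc
Mvk: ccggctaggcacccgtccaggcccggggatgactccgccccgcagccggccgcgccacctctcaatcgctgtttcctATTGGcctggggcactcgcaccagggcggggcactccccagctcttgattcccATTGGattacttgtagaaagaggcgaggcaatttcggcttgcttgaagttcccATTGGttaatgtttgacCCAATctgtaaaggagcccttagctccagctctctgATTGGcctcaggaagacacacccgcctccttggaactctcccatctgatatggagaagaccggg
Ebp: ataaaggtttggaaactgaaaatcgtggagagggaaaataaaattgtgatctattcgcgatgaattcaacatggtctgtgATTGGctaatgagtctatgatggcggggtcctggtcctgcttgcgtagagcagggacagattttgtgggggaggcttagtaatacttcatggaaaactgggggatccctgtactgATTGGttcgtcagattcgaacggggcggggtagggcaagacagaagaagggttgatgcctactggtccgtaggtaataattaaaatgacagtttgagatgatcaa
Fasn: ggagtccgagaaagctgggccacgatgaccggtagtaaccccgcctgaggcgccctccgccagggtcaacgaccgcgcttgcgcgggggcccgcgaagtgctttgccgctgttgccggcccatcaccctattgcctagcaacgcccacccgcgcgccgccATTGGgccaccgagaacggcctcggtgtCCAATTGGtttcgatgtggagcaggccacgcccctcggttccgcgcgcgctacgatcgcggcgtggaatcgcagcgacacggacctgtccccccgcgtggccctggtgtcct

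None of the 30 genes passed an adjusted p of 0.05 between KO and control skin (edgeR quasi-likelihood test with Benjamini-Hochberg adjustment over all 17472 tested genes), while 3.76% of all tested genes passed, 2.71% as higher and 1.05% as lower in KO. At an unadjusted p under 0.05 there were 3 of 30 genes (Ebp, Dhcr7 and Stard4), against 21.9% of all tested genes, and DESeq2 called 1, Ebp, against 10.5% of all tested genes. The median log2 fold change was 0.03 over the 30 genes and -0.02 over all tested genes, with 16 positive and 14 negative values, and 47.6% of all tested genes had a positive value. Sterol arm values lay between -0.39 and 0.44 on the log2 scale with a median of 0.11, and fatty acid arm values between -0.38 and 0.12 with a median of -0.02. With scaling to library size alone the median of all genes was -0.16, and the arm medians were -0.04 and -0.17, a shift shared by all genes. The 95% intervals of all 30 fold changes lay within a 2-fold change in either direction, and those of 23 within 1.5-fold. The 7 with a bound beyond 1.5-fold were Mvk, Pmvk, Mvd, Lss, Ebp, Stard4 and Fasn. Each interval stands for its own gene, with no adjustment for their number.

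**Figure D1:**
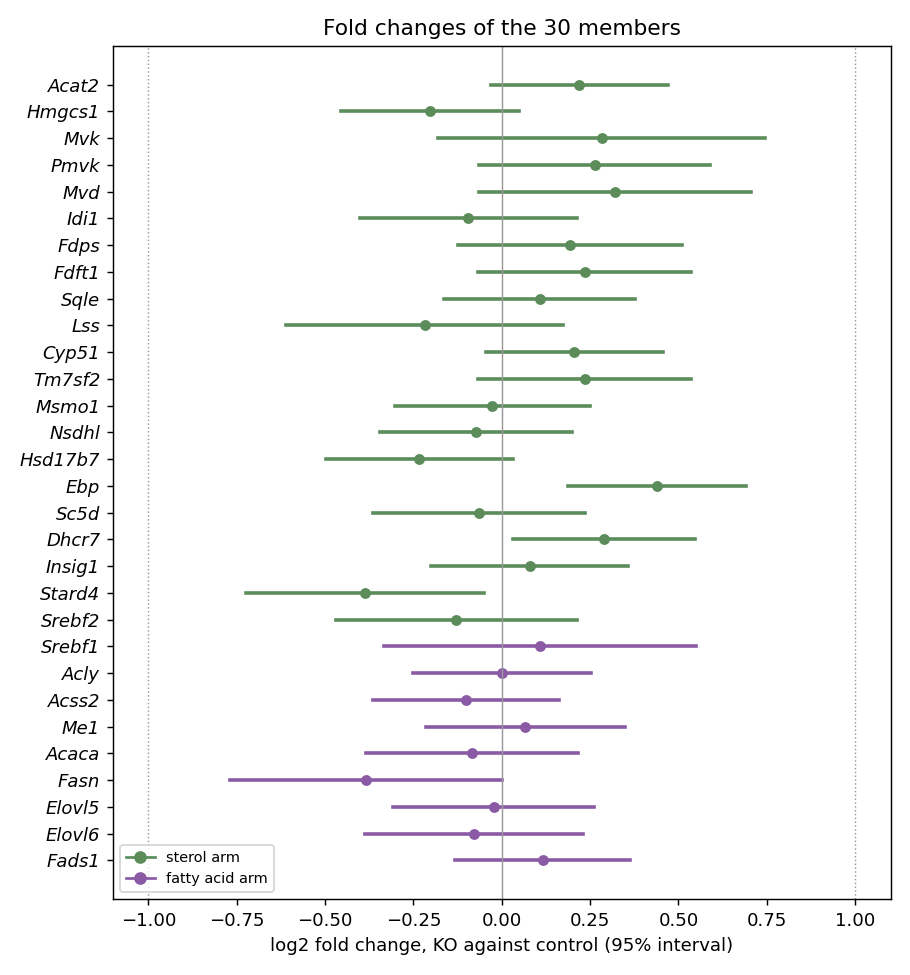
Log2 fold change of each of the 30 genes in KO against control skin (points) with 95% intervals (lines), sterol arm in green and fatty acid arm in purple. Solid and dotted vertical lines mark no change and a 2-fold change, and every interval lies between the dotted lines.

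Total counts were 32353957 to 79160005 in the controls and 45270805 to 54596686 in KO, and the 30 genes had between 556 and 73206 counts in a library. The standard errors of their log2 fold changes were 0.11 to 0.21, with a median of 0.13 against 0.16 over all tested genes. Cd1d1, the mouse gene for CD1d, had 6.61, 9.87 and 5.52 CPM in the controls and 1.19 and 1.12 CPM in KO, a log2 fold change of -2.67 (SE 0.29, edgeR adjusted p = 0.0152), in the direction of the labels. The skin markers Krt5 and Krt14, keratins of basal keratinocytes, were abundant, at 5764 to 7411 and 5660 to 7088 CPM. The labels do not state whether the libraries stem from different mice, so p-values measure the spread between these 5 libraries. In whole skin, fewer cells of a type and less RNA per cell cannot be told apart.

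Per kilobase of transcript, which allows levels of different genes to be set side by side, the 30 genes spanned 4.23 to 148 CPM per kilobase (mean of 5 libraries). Fdps, the synthase of farnesyl diphosphate, was highest, at 140 ± 19.6 CPM per kilobase in controls (SD, n = 3) and 160 ± 16.2 in KO (SD, n = 2). Elovl6, which lengthens palmitate to stearate, followed at 127 ± 18.9 in controls and 121 ± 0.94 in KO. Hmgcs1, the cytosolic HMG-CoA synthase, had 125 ± 6.27 and 109 ± 2.56 CPM per kilobase. Among controls the levels of Fdps, Elovl6 and Hmgcs1 overlapped, so their order relative to each other is uncertain. Msmo1, the C4-methylsterol oxidase, came next with 99.7 ± 5.76 in controls and 97.9 ± 11.8 in KO. The carboxylase gene Acaca (6.14 ± 0.70 in controls) and the sterol transporter gene Stard4 (4.67 ± 0.40) were lowest. Lengths were those of the longest coding transcript, and a shorter isoform in use would make a level read too low.

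**Figure D2:**
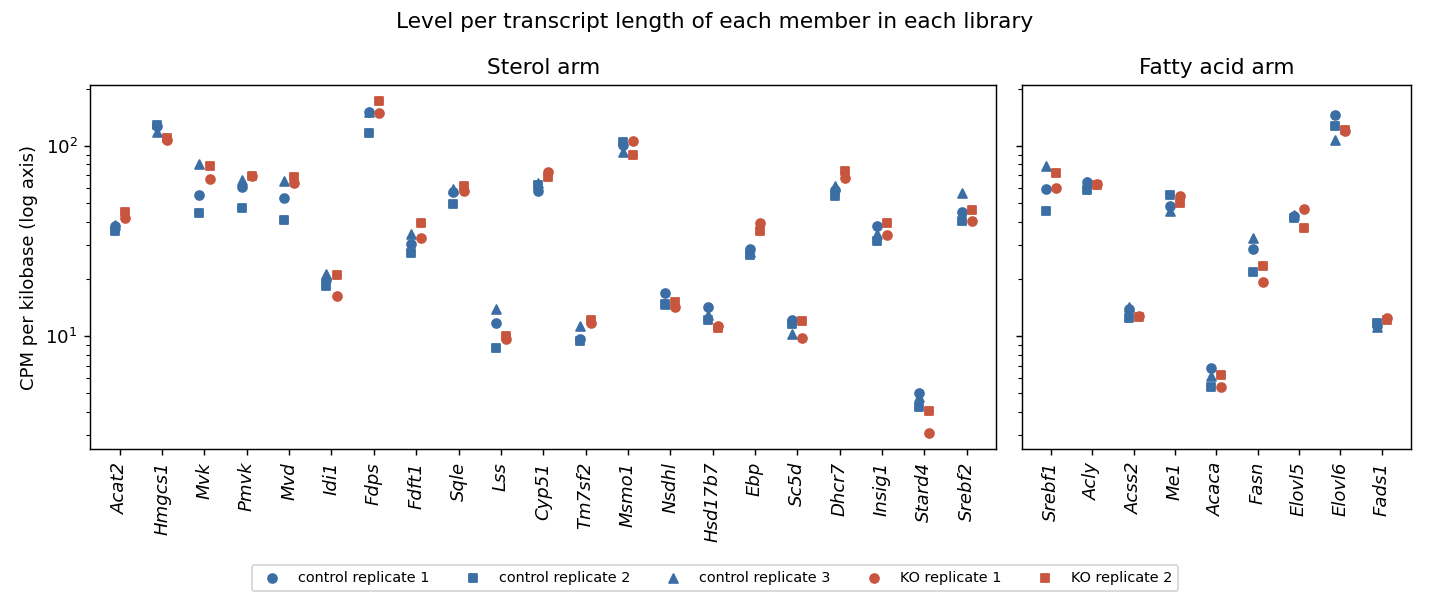
Level of each gene in each library, in CPM per kilobase of transcript on a log axis, controls in blue and KO in red, with marker shape giving the replicate number. Genes differ far more from each other, from 4.23 for Stard4 to 148 for Fdps on average, than the libraries differ within a gene.

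In the first steps of the sterol arm, from acetyl-CoA to isoprenoids, 5 of 7 genes had positive and 2 negative log2 fold changes, between -0.20 and 0.32, and none passed. Hmgcs1, which commits acetyl units to this route, had 444, 448 and 409 CPM in the controls and 371 and 383 CPM in KO. Both KO libraries lay below every control, yet the log2 fold change was -0.20 (SE 0.11, edgeR adjusted p = 0.329, 95% interval -0.45 to 0.05). Fdps had 209, 162 and 209 CPM in the controls and 205 and 237 CPM in KO, with overlapping groups and a log2 fold change of 0.19 (SE 0.14, edgeR adjusted p = 0.459). Both KO libraries lay above every control for Acat2, an acetyl-CoA acetyltransferase (log2 fold change 0.22, SE 0.11), and for Pmvk, the phosphomevalonate kinase (0.26, SE 0.15). Mvk, the mevalonate kinase (log2 fold change 0.28, SE 0.21), and Mvd, the mevalonate decarboxylase (0.32, SE 0.17), had a wide control range. Mvk was at 73.7 CPM in control replicate 2 and 133 CPM in control replicate 3, and Mvd at 71.9 and 115 CPM. Both KO libraries of each gene lay above control replicates 1 and 2. Without control replicate 3, where 3277 of 17403 tested genes passed, Mvk and Mvd passed as higher in KO. Their log2 fold changes were 0.54 and 0.49 (edgeR adjusted p = 0.0113 and 0.0179). Without control replicate 2 their values were 0.11 and 0.16, and with offsets for transcript length and GC content, described further on, 0.03 and 0.08, and neither passed. Idi1, the isopentenyl diphosphate isomerase, had a log2 fold change of -0.09 (SE 0.14).

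The 3 genes around squalene spread on both sides of 0. The log2 fold change of Fdft1, the squalene synthase, was 0.23 (SE 0.14), and that of Sqle, the squalene epoxidase, 0.11 (SE 0.12). Lss, which cyclises the epoxide to lanosterol, had -0.22 (SE 0.18). Libraries of the groups overlapped for each of these genes. Summed over the 3, levels were 279 to 355 CPM in controls and 326 and 362 CPM in KO.

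From lanosterol to cholesterol, 4 of 8 genes had positive and 4 negative log2 fold changes. Ebp, the isomerase that moves the ring double bond, had the largest value and the smallest p of all 30 genes. It had 50.0, 46.3 and 48.4 CPM in the controls and 68.2 and 62.6 CPM in KO, so that both KO libraries stood clear of a tight control group. Its log2 fold change was 0.44 (SE 0.11, edgeR adjusted p = 0.0605, 95% interval 0.19 to 0.69). Ebp passed with DESeq2 (adjusted p = 0.0113) and without control replicate 3 (edgeR adjusted p = 0.0126), and its adjusted p over the 11 other settings and left-out libraries ran from 0.0113 to 0.478. Dhcr7, the last enzyme of this route, had 165, 153 and 173 CPM in the controls and 191 and 209 CPM in KO. Both KO libraries again lay above every control, with a log2 fold change of 0.29 (SE 0.12, edgeR adjusted p = 0.18). Dhcr7 passed without control replicate 3 (0.33, edgeR adjusted p = 0.0388). In that setting, the same for Ebp and Dhcr7, 3277 of 17403 tested genes passed.

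Hsd17b7, a ketosteroid reductase of the C4 demethylation steps, pointed the other way. It had 65.3, 56.3 and 59.8 CPM in the controls and 52.1 and 50.8 CPM in KO, both below every control. Its log2 fold change was -0.23 (SE 0.12, edgeR adjusted p = 0.283). Msmo1, which acts in the same demethylation, had 206, 214 and 191 CPM in the controls and 217 and 183 CPM in KO, with a log2 fold change of -0.03 (SE 0.12, 95% interval -0.30 to 0.25). For Cyp51, the lanosterol demethylase, and Tm7sf2, a sterol reductase, the KO libraries stood above all controls. Their log2 fold changes were 0.21 (SE 0.11) and 0.23 (SE 0.14). Nsdhl, the dehydrogenase of C4 demethylation (-0.07, SE 0.12), and Sc5d, the sterol desaturase (-0.06, SE 0.14), had overlapping groups.

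Stard4, which carries cholesterol between membranes, had the most negative value of the sterol arm. Its levels were 25.5, 21.5 and 24.4 CPM in the controls and 15.8 and 20.6 CPM in KO, with KO replicate 1 the lowest library. The log2 fold change was -0.39 (SE 0.15, edgeR adjusted p = 0.173), and without KO replicate 1 it was -0.21. Insig1, the sterol-sensing retention protein that is itself a target of the SREBP factors, had 102, 85.7 and 93.1 CPM in the controls and 92.2 and 106 CPM in KO. Its log2 fold change of 0.08 (SE 0.13) came with overlapping groups. Srebf2, the main SREBP gene of the sterol arm, had 228, 204 and 287 CPM in the controls and 204 and 234 CPM in KO, a log2 fold change of -0.13 (SE 0.15, 95% interval -0.47 to 0.21).

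In the fatty acid arm, Fasn, the fatty acid synthase, had the largest difference. Its levels were 288, 219 and 331 CPM in the controls and 194 and 234 CPM in KO. Control replicate 2 lay between the 2 KO libraries, so the groups overlapped, and the log2 fold change was -0.38 (SE 0.17, edgeR adjusted p = 0.229, 95% interval from -0.77 to just above 0). Without control replicate 2, where 1334 of 17097 tested genes passed, Fasn passed as lower in KO (-0.53, SE 0.13, edgeR adjusted p = 0.0249). It was -0.25 both without control replicate 3 (edgeR adjusted p = 0.249) and without KO replicate 1. Acaca, whose product makes malonyl-CoA for Fasn, had 65.0, 51.7 and 58.5 CPM in the controls and 51.0 and 59.1 CPM in KO, with a log2 fold change of -0.08 (SE 0.14).

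Srebf1, the SREBP gene of this arm, had the widest control range of its arm. It had 254, 196 and 340 CPM there and 259 and 309 CPM in KO, both inside the control range, with a log2 fold change of 0.11 (SE 0.20, 95% interval -0.33 to 0.55). Acly, which releases acetyl-CoA from citrate, had 286, 260 and 287 CPM in the controls and 280 and 275 CPM in KO. Its group means were both 278 CPM, and the 95% interval of its log2 fold change ran from -0.25 to 0.25. Acss2, which makes acetyl-CoA from acetate, had 40.7, 36.6 and 41.9 CPM in the controls and 37.2 and 36.8 CPM in KO, a log2 fold change of -0.10 (SE 0.12). Me1, the cytosolic malic enzyme that supplies NADPH, had 0.07 (SE 0.13).

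The enzymes that lengthen and desaturate fatty acids had values close to 0. Elovl6 had 868, 763 and 643 CPM in the controls and 715 and 722 CPM in KO, with both KO libraries inside the control range and a log2 fold change of -0.08 (SE 0.14). Elovl5, which elongates polyunsaturated fatty acids, had -0.02 (SE 0.13). Fads1, the delta-5 desaturase, had 38.9, 40.6 and 38.8 CPM in the controls and 43.3 and 42.2 CPM in KO. Its KO libraries lay above every control, by a small margin, at a log2 fold change of 0.12 (SE 0.11, edgeR adjusted p = 0.585).

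**Figure D3:**
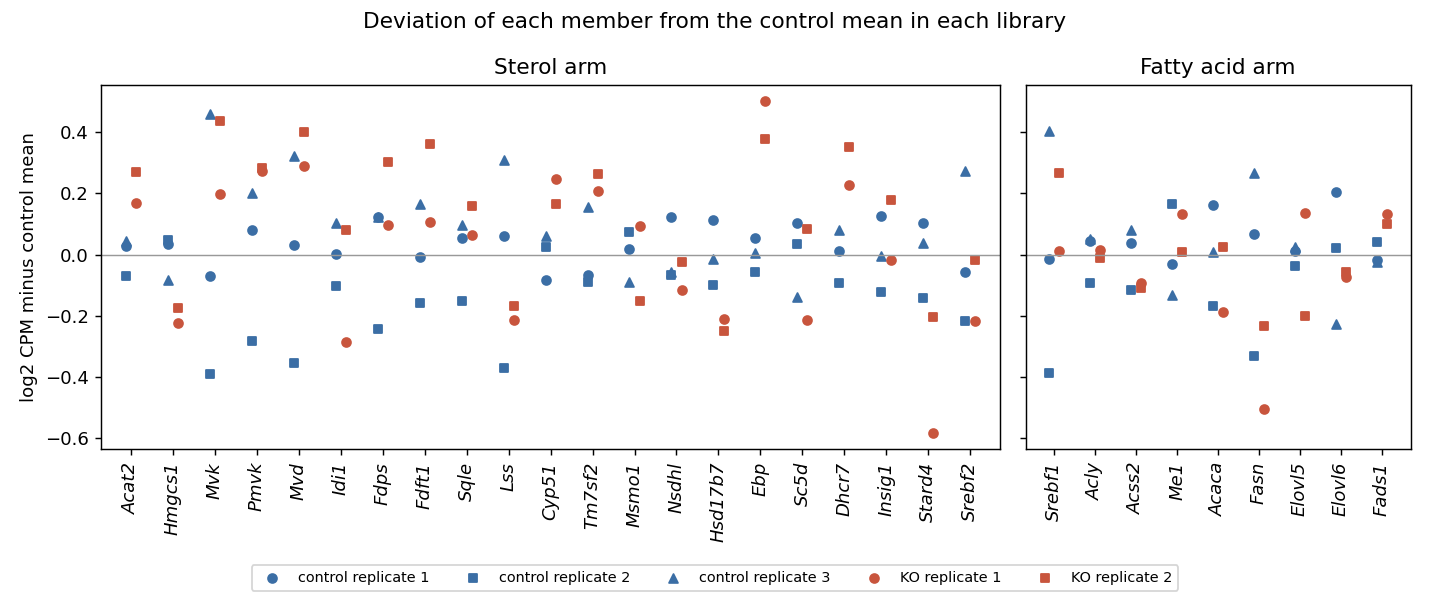
Deviation of each gene from its control mean in each library, on the log2 CPM scale, controls in blue and KO in red, with marker shape giving the replicate number. Ebp, Dhcr7 and Cyp51 have both KO libraries above every control, Hmgcs1, Hsd17b7 and Stard4 have both below, and control replicate 2 is the lowest library for 16 of the 30 genes.

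Across the 30 genes the KO libraries lay above every control for 7 and below every control for 3, while this held for 19.9% and 20% of all tested genes. The 7 were Acat2, Pmvk, Cyp51, Tm7sf2, Ebp, Dhcr7 and Fads1, and the 3 were Hmgcs1, Hsd17b7 and Stard4. Both shares together, 10 of 30 genes, compare with 39.9% of all tested genes. Summed over the sterol arm, levels were 2561, 2355 and 2676 CPM in the controls and 2574 and 2727 CPM in KO. Summed over the fatty acid arm, they were 2121, 1865 and 2010 CPM in the controls and 1889 and 1946 CPM in KO. The ratio of the sterol to the fatty acid sum was 1.21, 1.26 and 1.33 in the controls and 1.36 and 1.40 in KO, a description for which no test was made. The median log2 fold changes of the sterol and fatty acid arms were 0.11 and -0.02. With length and GC offsets, described further on, they were 0.02 and 0.15, in the opposite order. The sums weigh abundant genes most, and the median transcript of the arms was 2758 and 4299 bases.

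Transcript length moved with the fold changes. Over all 15809 tested genes with a known length, fold change and length had a Spearman's rho of -0.57, and over the 30 genes it was -0.70, a description over genes that share the same 5 libraries. Both KO libraries held the trend (each gene's deviation from its 5-library mean against length gave rho of -0.47 in either KO library and of 0.21 to 0.46 among controls). Among all genes split into 4 bins of equal size by length, the shortest bin, up to 1909 bases, held 6 sterol genes with a median log2 value of 0.27, and all 3955 genes of the bin had 0.27. In the longest bin, above 4552 bases, 5 sterol genes had a median of -0.22 and 3 fatty acid genes of -0.08, beside -0.24 for all 3952 genes. In the 2 bins between, sterol medians were 0.09 and 0.06, fatty acid medians -0.06 and 0.09, and those of all genes 0.04 and -0.08. Within the arms, Spearman's rho was -0.69 over the 21 sterol genes and -0.37 over the 9 fatty acid genes. With offsets that remove each library's trend on length and GC content, the medians were 0.02 for the sterol arm and 0.15 for the fatty acid arm, none of the 30 genes passed, and rho over the 30 genes was 0.08. In that fit the log2 fold changes were 0.30 for Ebp (adjusted p = 0.0706), 0.27 for Dhcr7 (0.0769), 0.35 for Cyp51 (0.0687), -0.15 for Stard4, -0.17 for Fasn, -0.06 for Hmgcs1 and -0.02 for Hsd17b7. The part of length in each difference was not tested beyond this.

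**Figure D4:**
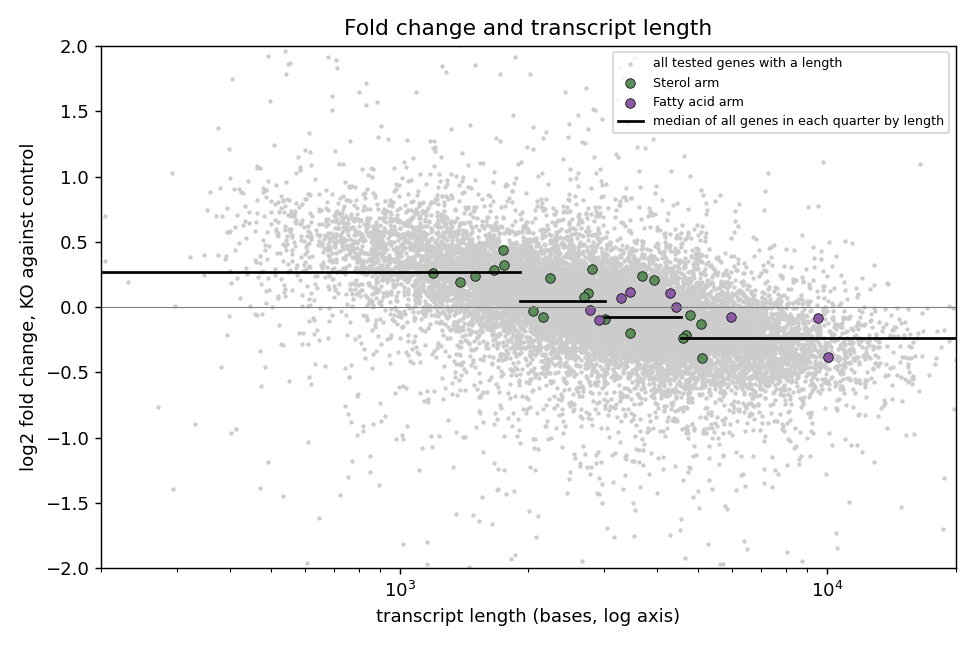
Log2 fold change in KO against control skin by transcript length on a log axis, all tested genes with a length in grey, sterol arm in green and fatty acid arm in purple, with black lines for the median of all genes in each of 4 bins by length. The black lines step down from 0.27 to -0.24, and sterol genes lie highest among the shortest and lowest among the longest transcripts. A few genes beyond the ends of the axes are not drawn.

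Of 18 other genes of sterol handling, none passed by edgeR (3.76% of all genes did), 5 had an unadjusted p under 0.05 (21.9% of all genes did), and DESeq2 called 3, Npc1, Npc2 and Mylip (10.5% of all genes), with a median log2 fold change of -0.05. The 4 with the smallest p were Mylip, a ubiquitin ligase, with 67.9, 65.1 and 69.3 CPM in the controls and 49.5 and 48.2 CPM in KO (-0.46, SE 0.11, edgeR adjusted p = 0.0506), Npc1 (-0.37, SE 0.12, adjusted p = 0.0975) and Npc2 (0.38, SE 0.12, adjusted p = 0.101), which together export cholesterol from lysosomes, and the cholesterol efflux pump Abca1 (-0.37, SE 0.15, adjusted p = 0.171). Npc1 and Npc2 thus had opposite signs, and the groups of each did not overlap. Npc1 shares 323 transcript bases with the opposite-strand gene Rmc1. With length and GC offsets Mylip (-0.41, adjusted p = 0.0203) passed as lower and Npc2 (0.43) as higher in KO, while Npc1 had -0.18 and Abca1 -0.03.

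Of 25 other genes of fatty acid and triglyceride synthesis, 1 fell, none rose and 24 did not pass (3.76% of all genes passed), with a median of -0.01. At an unadjusted p under 0.05 there were 5 (21.9% of all genes), and DESeq2 called 2, Gpam and Thrsp (10.5%). Gpam, which starts glycerolipid synthesis at mitochondria, had 40.2, 34.0 and 40.3 CPM in the controls and 26.1 and 25.6 CPM in KO, both below every control (log2 fold change -0.56, SE 0.13, edgeR adjusted p = 0.0416). With length and GC offsets Gpam had -0.31 (adjusted p = 0.124), and it did not pass without control replicate 1 (-0.52, adjusted p = 0.229), KO replicate 1 (-0.58, 0.362) or KO replicate 2 (-0.55, 0.281), where 0, 1 and 128 of all tested genes passed. Thrsp, a lipogenic regulator (0.58, SE 0.18, edgeR adjusted p = 0.102), and Dgat1 (0.43, SE 0.15, adjusted p = 0.117) and Agpat2 (0.35, SE 0.13, adjusted p = 0.158), enzymes of triglyceride assembly, had positive values and did not pass. Thrsp stood at 28.5 CPM in KO replicate 2 and 18.1 CPM in KO replicate 1, and its log2 fold change was 0.21 without the first and 0.87 without the second. With length and GC offsets the values were 0.28 for Thrsp, 0.25 for Dgat1 and 0.04 for Agpat2. Scd1, the stearoyl-CoA desaturase, stood at 4058 CPM in controls and 4019 CPM in KO with a log2 fold change of -0.01 (SE 0.12), and was named after its value was seen.

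Markers of the lipid-making cells of skin were measured beside these genes. Of all tested genes 3.76% passed by edgeR, 2.71% as higher and 1.05% as lower in KO. The 14 sebaceous gland markers summed to 1681 to 2075 CPM in the controls and 1908 and 1996 CPM in KO, and none passed. The 12 adipocyte markers summed to 1093 to 1636 CPM in the controls and 1633 and 1850 CPM in KO, and 1 rose, Cfd, the gene for adipsin (0.71, SE 0.15, edgeR adjusted p = 0.0351). The 10 keratinocyte markers summed to 38092 to 47368 CPM in the controls and 52054 and 55394 CPM in KO, and none passed. Most of that gap came from Lor, a cornified envelope gene, with 9650 to 15131 CPM in the controls and 23492 and 17624 CPM in KO. Of the 10 markers 6 had positive and 4 negative values. Both KO libraries lay above every control for Krt5, Lor, Ivl and Krt15, and below for Flg, Trp63 and Dsg1a. This held for 19.9% (above) and 20% (below) of all tested genes. The 10 skeletal muscle markers summed to 4719 to 5050 CPM in the controls and 6163 and 6885 CPM in KO, and 3 rose, Pvalb, Tnni2 and Mylpf. None of the 12 hair follicle keratin markers, high in KO replicate 1, passed. The 6 fibroblast markers summed to 25622 to 33087 CPM in the controls and 26500 and 26833 CPM in KO. The 8 leukocyte markers summed to 791 to 854 CPM in the controls and 896 to 982 CPM in KO, and none of either list passed. Of the 8 leukocyte markers 4 had positive and 4 negative values. The most abundant were Cd74, with 399 to 470 CPM in the controls and 513 and 485 CPM in KO, and Lyz2, with 241 to 295 and 347 and 293 CPM. The most negative was Trac, at 0.40 to 0.64 CPM in the controls and 0.12 CPM in both KO libraries (log2 fold change -2.05, edgeR adjusted p = 0.0661). At an unadjusted p under 0.05 (21.9% of all tested genes) there were 2 sebaceous, 5 adipocyte, 3 keratinocyte, 7 skeletal muscle, 0 hair follicle keratin, 1 fibroblast and 1 leukocyte markers. DESeq2 (10.5% of all tested genes) called 0, 3, 2 (Lor and Ivl), 6, 5, 1 (Pdgfra) and 0 of them. No marker of these lists was at 0 in all libraries. The part of these markers in the values of the 30 genes was not tested. Without KO replicate 1, 1 of all tested genes passed and none of the 30, the arm medians were 0.17 and -0.01, and Idi1, Sc5d, Acly and Acaca, all close to 0, changed sign.

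Some counts may mix genes, since the sources used here do not give the treatment of shared reads or the strand setting. Acat2 shares 97.7% identity over 1477 bases with Acat3 and 98.7% over 445 bases with Tcp1. Fdps shares 100% identity over 929 of its 1382 bases with Gm43738, an entry annotated as protein-coding. Processed pseudogenes at least 95% identical over 300 bases or more exist for Acaca, Elovl6, Fdft1, Fdps, Idi1 and Me1. Opposite-strand genes overlap Fdft1 (Ctsb), Srebf1 (Rai1), Acss2 (Acss2os), Lss (4930483K19Rik), Me1 (A330041J22Rik), Elovl6 (Gm35986) and Acaca (Tada2a, Gm11437). Fdft1 shares 774 bases with Ctsb at 100% identity. Hmgcs1 shares 462 bases with Gm48342, an antisense entry, and Idi1 shares 323 bases with Gm48574, both at 100% identity. Me1 shares 1159 bases with Gm48795 at 98.7% identity. Values of these genes are uncertain to that extent. Tm7sf2 also overlaps Vps51 on the same strand.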

How the data were processed

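Ear skin RNA of 3 control and 2 Cd1d KO samples was sequenced, and the samples were grouped by their titles. The authors deposited whole-number read counts per Entrez gene, not normalized. The submitters' processing notes name FastQC, HISAT2 2.0.4, DESeq2 1.16.1 and the build GRCm38 (mm10), while the sources used here do not give the counting program, the strand setting or any poly(A) selection or ribosomal RNA removal.

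Symbols and positions came from RefSeq GRCm38.p6 (25275 of 27179 identifiers), and lengths and GC content from the longest coding transcript in GENCODE (90.5% of tested genes, all 30 members). Low counts were removed with filterByExpr, libraries were scaled with TMM, and KO was tested against control with edgeR 4.0.16 (quasi-likelihood, robust, R 4.3.3, threshold 0.05). Standard errors follow from the F statistic. CPM per kilobase is CPM divided by transcript length. Full values are given for the 4 smallest p and 3 highest levels per arm, and up to 4 genes of each other pathway list. Levels of Insig1 and Srebf2 in each library are also given, outside that rule. The members, lists and motifs were chosen with earlier results of these data known. Alternatives were other scalings, no count filter, DESeq2 1.42.0, length and GC offsets (mgcv 1.9.3), a replicate block and leaving out each replicate. The fits were tested on simulated data. Within a group, pairs of libraries differed by 22.9 to 76.3 times the sampling noise (chi-square over its degrees of freedom), so each was counted as a library of its own.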

Additional observations from a re-analysis of the deposited data

How the results depend on the processing

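The count of 0 in the fatty acid arm stayed at 0 under every alternative except without control replicate 2, where Fasn passed, and ran from 0 to 1 over the left-out libraries. The count of 0 in the sterol arm became 1 with the DESeq2 test (Ebp) and ran from 0 to 4 over the left-out libraries, with Mvk, Mvd, Ebp and Dhcr7 passing without control replicate 3. Over all genes tested, 657 passed, against 1242 with library size alone (268 higher and 974 lower, where 474 were higher and 183 lower), 1036 without a count filter and 1834 with DESeq2, and the count ran from 0 (without control replicate 1) to 3277 (without control replicate 3) over the left-out libraries. Among other sterol genes the count of 0 became 2 with library size alone, 1 without a count filter, 3 with DESeq2 and 2 with length and GC offsets, and ran from 0 to 4 over the left-out libraries. Among other fatty acid genes the count of 1 became 2 with DESeq2 and 0 with length and GC offsets, and ran from 0 to 4.

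The labels number the replicates, and whether the numbers pair the samples was not settled. Deviations of same-numbered libraries correlated at 0.02 and 0.06, over only 2 pairs. With 2 KO libraries such correlations are forced opposites (0.02 and -0.02 for control replicate 1), so they cannot decide the pairing. With the replicate number as a block, 2037 genes passed, 3 in the sterol arm (Ebp, Mvk and Mvd), 0 in the fatty acid arm, and 3 in each list of other genes. Control replicate 3 has no partner and then carries no weight in the contrast. Of the 30 genes 6 changed sign with library size alone (Sqle, Insig1, Srebf1, Acly, Me1 and Fads1, all within 0.12 above 0 on the log2 scale, where that scaling lowers the median of all genes from -0.02 to -0.16) and 8 with length and GC offsets (Pmvk, Idi1, Fdps, Tm7sf2, Sc5d, Acaca, Elovl5 and Elovl6). Among the 8 the largest value without offsets was 0.26, that of Pmvk, which became -0.09. Tm7sf2 went from 0.23 to -0.04 and Fdps from 0.19 to -0.08. Pmvk and Tm7sf2 were among the genes with both KO libraries above every control. With 1 KO library left out, the spread of the other is taken from the controls. With 3 against 2 libraries and no block, none of the 30 genes passed by edgeR, whether its control range was wide or narrow. Ebp, with a control range of 1.08-fold and a log2 fold change of 0.44, had an edgeR adjusted p of 0.0605. The cause of the shifts between settings was not tested.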

Other observations

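Control replicate 2 was the lowest of the 3 controls for 23 of the 30 genes, against 36% of all tested genes, and control replicate 3 was the highest for 17, against 39.7%. Control replicate 2 was the lowest of all 5 libraries for 13 of 21 sterol genes and 3 of 9 fatty acid genes, against 22.2% of all tested genes. KO replicate 2 was the highest library for 9 of 21 sterol genes and 0 of 9 fatty acid genes, against 18.5% of all tested genes. These are counts over genes that share the same libraries, and no test was made.

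The highest control stood above the lowest by 1.19-fold at the median of the 30 genes, and by 1.29-fold at the median of all tested genes. The widest control ranges were those of Mvk (1.80-fold), Srebf1 (1.73-fold), Lss (1.60-fold), Mvd (1.60-fold) and Fasn (1.51-fold), and the narrowest that of Elovl5 (1.04-fold). Elovl5 was less even in KO (1.26-fold between the 2 libraries), where Stard4 had the widest range (1.30-fold).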
